A study of Rattus norvegicus with 11 samples.

Results

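The calponins (Cnn1, Cnn2 and Cnn3), the transgelins (Tagln and Tagln2), the tropomyosins (Tpm1, Tpm2, Tpm3 and Tpm4) and caldesmon (Cald1) were followed in rat bladder tissue after partial bladder outlet obstruction (PBOO). The genes were chosen by symbol, and all 10 were found among the 18507 genes of the expression table. RNA sequencing covered 11 bladders of female adult Sprague-Dawley rats, with 3 PBOO and 3 normal samples at week 4 and 2 PBOO and 3 normal samples at week 5. PBOO was made by tying off the bladder neck and urethra in part, and the methods describe controls that had an abdominal incision alone, whereas the labels call the controls normal and the columns of the week 5 controls carry the name adult. A further PBOO sample of week 5 was left out by the study at library construction. Levels are in FPKM, fragments scaled by exon length and by the mapped fragments of the sample, so that levels of different genes can be set side by side. The p-values measure the spread between these samples, and in whole tissue fewer cells of a type and less RNA per cell cannot be told apart.

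In smooth muscle, tropomyosin runs along the actin filament as a coiled coil, and calponin and caldesmon bind the filament and restrain its movement past myosin. Transgelin is a small relative of calponin that binds and bundles actin. Each family also has members used mainly outside muscle: Cnn1 and Tagln are classical markers of contractile smooth muscle, and Tpm1 and Tpm2 are the main tropomyosin genes of muscle, while Cnn2, Cnn3, Tagln2, Tpm3 and Tpm4 are found in epithelial, immune, stromal or nerve cells. Cald1 has no non-muscle relative, since a long muscle form and a short form of most cells come from the same gene by splicing. Tpm1, Tpm2 and Tpm3 likewise give muscle and other forms from 1 gene, and values per gene do not separate them. The tropomyosin genes are close in sequence, so reads could be split between them in a way that is not given in the sources used here, and their values carry that uncertainty.

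Promoter sequence is shown because the muscle members moved together in the results below, and CArG boxes (bound by serum response factor, Srf) and MCAT elements (bound by TEAD factors) are the motifs usually named for smooth muscle genes. RefSeq windows on the rat build GRCr8 were at hand for 9 of the 10 members, and the 250 bases before each start were searched on both strands. Tagln had no entry. A full CArG box, with every base of the motif matched, was present in 1.50% of 33469 windows of the same length, a CArG box with at most 1 mismatch in 18.7%, and an MCAT element (CATTCC or, on the other strand, GGAATG) in 12.1%. The full CArG box occurred in Cnn2 alone among these members. A box with 1 mismatch was found in Tpm1, Tpm3 and Cald1, MCAT elements were found in Tagln2, Tpm1 and Cald1, and neither motif was found in the windows of Cnn1, Cnn3, Tpm2 or Tpm4. From these, 1 match each of Cnn2, Tpm1, Cald1 and Tagln2 is printed 5′ to 3′ in capitals, with the 30 bases on each side. The other matches, among them those of Tpm3, are not printed. The order is Cnn2 (CArG box, chr7:10370344-10370413, minus strand), Tpm1 (CArG box with 1 mismatch, chr8:76543571-76543640, minus strand), Cald1 (MCAT, chr4:64233031-64233096, plus strand) and Tagln2 (MCAT, chr13:87499246-87499311, plus strand).
Cnn2: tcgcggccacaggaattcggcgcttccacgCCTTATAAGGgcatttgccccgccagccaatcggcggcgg
Tpm1: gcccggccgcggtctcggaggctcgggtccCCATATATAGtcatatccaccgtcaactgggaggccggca
Cald1: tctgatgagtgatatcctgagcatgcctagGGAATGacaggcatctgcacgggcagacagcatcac
Tagln2: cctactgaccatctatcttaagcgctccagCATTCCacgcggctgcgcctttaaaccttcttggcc
These matches are a description of the letters in the windows. Within these windows the muscle and the non-muscle members were not separated by them, since 1 full box lay in a non-muscle gene and both groups held windows without any match. Motifs further from the starts or within the genes were not searched, and Tagln could not be included. A window without a match therefore does not show that a gene lacks the motif.

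The samples differed in ways that touch these genes. The summed FPKM of 9 smooth muscle markers was 13151 to 16043 in normal and 32402 to 52236 in PBOO bladders at week 4, and 15817 to 17249 in normal and 638 to 1112 in PBOO bladders at week 5, with no marker of the list at 0 in any sample. The labelled tissue therefore carried its muscle markers in every sample, at low levels in the PBOO samples of week 5. Of these 9 markers, 5 were higher and 0 lower at unadjusted p under 0.05 in limma at week 4 (median log2 fold change 0.45). Actg2 alone was at 15712 to 29521 FPKM in PBOO and 4187 to 4834 FPKM in normal bladders at week 4. At week 5 all 9 were lower (median -4.69). Summed fibroblast markers (8 genes) were 120 to 185 in PBOO against 1522 to 1919 in normal bladders at week 5, and summed leukocyte markers (11 genes) were 204 and 1107 against 33.7 to 78.4. Summed urothelial markers (12 genes, of which 2 are at 0 in every week 4 sample) were 3830 to 4956 in PBOO against 6571 to 8342 in normal bladders at week 4, and 9979 and 10709 against 7650 to 9954 at week 5. By gene, 0 of the 10 tested were higher and 9 lower at unadjusted p under 0.05 at week 4 (median log2 fold change -0.74), and 3 of 12 were higher and 6 lower at week 5 (median -0.36). At week 4, normal replicate 1 stood apart with 1157 for the fibroblast markers (4100 and 4129 in the other normal samples) and 63.0 for the leukocyte markers (407 and 455). PBOO replicate 3 of week 4 had 3112 for 9 striated muscle markers, against 378 and 984 in the other PBOO samples and 198 to 341 in the normal samples. Acta1 alone made up 2741 FPKM of that sum, and of the 9 genes 2 were higher and 0 lower at unadjusted p under 0.05 at week 4, with a median log2 fold change of -0.38. The part of these shifts in the changes of the members was not tested. The columns differed by week in their names and in the genes at 0. Column names at week 4 all end in Input, while those at week 5 start with adult (normal) or DO (PBOO). These names do not say how the samples were run. At week 4 every sample has a 0 for 4871 genes, and at week 5 for 403 genes, so levels were compared within a week.

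**Figure D1:**
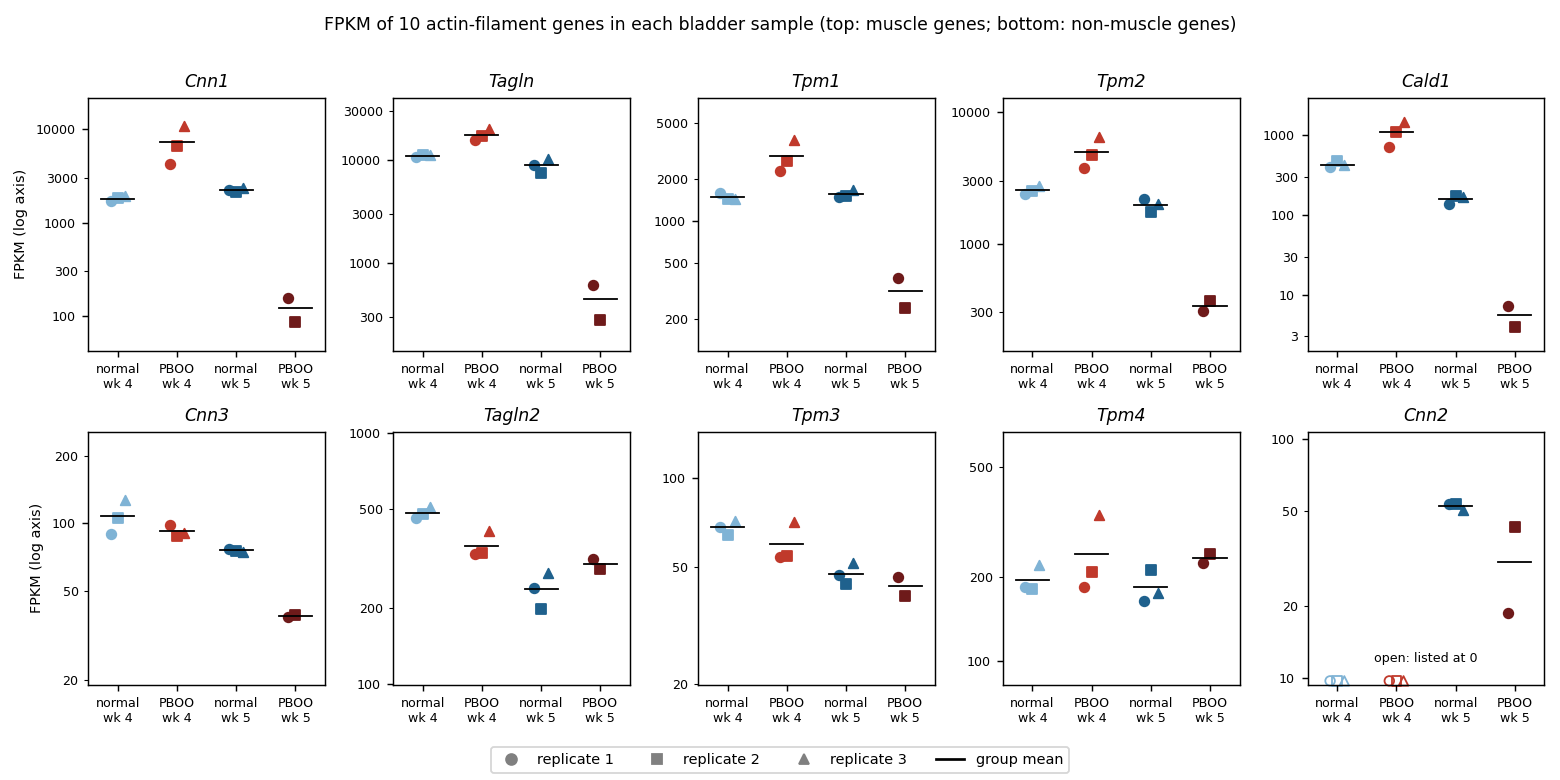
FPKM (log axis) of the 10 genes in every sample of the 4 groups, with a bar at the group mean and open symbols for values listed at 0. The muscle genes of the upper row are highest in PBOO at week 4 and lowest in PBOO at week 5, whereas the non-muscle genes of the lower row stay within a narrower range.

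In the normal bladder Tagln, Tpm2, Cnn1 and Tpm1 stood far above the other members, whereas Cald1 did not. Tagln had the highest mean of all genes in the table in both sets of normal samples (rank 1), at 11158 ± 246 FPKM (SD, n = 3) at week 4 and 9011 ± 1326 FPKM (SD, n = 3) at week 5. Tpm2, Cnn1 and Tpm1 followed it, and at week 5 the ranges of Cnn1 and Tpm2 overlapped. Tagln2, Cald1 and Tpm4 formed a middle tier, in which Tagln2 and Cald1 overlapped at week 4 and Tagln2 and Tpm4, as well as Tpm4 and Cald1, overlapped at week 5. Cnn3, Cnn2 and Tpm3 were lowest, between 43.8 and 127 FPKM wherever they were above 0. The 10 genes together took 3.18% to 4.01% of all FPKM in normal bladders.

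At week 4 the 5 muscle members were higher after PBOO. Each had groups that did not overlap and an unadjusted p under 0.05, with log2 fold changes between 0.66 and 1.89 and a median of 0.94. Of the 9 members tested, 5 were higher and 1 was lower at unadjusted p under 0.05, while among all 11320 genes tested 5.76% were higher and 26.2% lower. By groups that did not overlap, again 5 were higher and 1 was lower, against 6.63% and 34.9% of all genes. After adjustment over all genes, limma called 0 of the 9 members at adjusted p under 0.05, where 0.336% of genes were called higher and 0.177% lower. The median of all genes was a log2 fold change of -0.25, so the members stood higher against the bulk of genes than these values read by themselves.

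Cnn1, the calponin of contractile smooth muscle, had the largest change among the members at week 4. Its level was 1680, 1805 and 1903 FPKM in the normal samples and 4184, 6588 and 10685 FPKM in the PBOO samples. All PBOO samples exceeded all normal samples, and PBOO replicate 3, the sample with the high Acta1, was the highest. The log2 fold change was 1.89 ± 0.33 (SE), a fold of 3.71, with an unadjusted p of 0.000714 and an adjusted p of 0.0538 in limma.

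Cald1, the myosin- and actin-binding caldesmon, was at 396, 471 and 424 FPKM in normal and 710, 1091 and 1481 FPKM in PBOO bladders at week 4. The groups were apart, and the PBOO samples spread more widely than the normal ones. The log2 fold change was 1.29 ± 0.26 (SE), with an unadjusted p of 0.00158 and an adjusted p of 0.0551 in limma.

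The muscle tropomyosins were higher by like amounts. Tpm1 was at 1595, 1438 and 1426 FPKM in normal and 2283, 2695 and 3778 FPKM in PBOO bladders, a log2 fold change of 0.94 ± 0.21 (SE; limma, unadjusted p = 0.00275, adjusted p = 0.0629). Tpm2 was at 2393, 2520 and 2736 FPKM in normal and 3789, 4751 and 6424 FPKM in PBOO bladders, a log2 fold change of 0.94 ± 0.23 (SE; limma, unadjusted p = 0.00426, adjusted p = 0.0703). Neither gene had overlapping groups, and PBOO replicate 3 again held the highest value of both.

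Tagln was already the most abundant member and had the smallest change of the muscle group. It was at 10874, 11311 and 11291 FPKM in normal and 15672, 17335 and 20327 FPKM in PBOO bladders at week 4. The groups were apart, and the log2 fold change was 0.66 ± 0.23 (SE; limma, unadjusted p = 0.0243, adjusted p = 0.115). This call was not stable: the unadjusted p was 0.174 in limma without the filter on low values. After quantile normalization, which sets a value by its rank within the sample, the value turned to -0.50 with a p of 0.0245 in limma. By mean, Tagln ranked 1 among all genes in normal and 2 in PBOO bladders at week 4. The negative value under that setting therefore cannot show which group had the higher FPKM. Leaving out single samples gave values of 0.56 to 0.75 and unadjusted p-values of 0.00167 to 0.0988, and the p was above 0.05 for 5 of the 6 samples left out.

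The non-muscle members moved less. Tagln2, the transgelin of epithelial and immune cells, was at 458, 477 and 506 FPKM in normal and 330, 333 and 406 FPKM in PBOO bladders at week 4. The PBOO samples were all lower, with a log2 fold change of -0.44 ± 0.12 (SE; limma, unadjusted p = 0.00900, adjusted p = 0.0831). The median of all genes was -0.25, and with median-ratio scaling, which moves it to -0.01, the value of Tagln2 was -0.19 with an unadjusted p of 0.305 in limma.

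Tpm4, a tropomyosin of most cells, was at 184, 181 and 221 FPKM in normal and 185, 209 and 335 FPKM in PBOO bladders, and the groups overlapped (log2 fold change 0.27, 95% interval -0.26 to 0.80; limma, unadjusted p = 0.272). Cnn3, the acidic calponin, was at 89.3, 105 and 127 FPKM in normal and 98.6, 88.2 and 90.1 FPKM in PBOO bladders (log2 fold change -0.20, 95% interval -0.54 to 0.14; limma, unadjusted p = 0.200). Tpm3 was at 68.5, 63.9 and 71.8 FPKM in normal and 53.9, 54.4 and 70.8 FPKM in PBOO bladders (log2 fold change -0.20, 95% interval -0.51 to 0.12; limma, unadjusted p = 0.179). None of these passed the test, and the values of Cnn3 and Tpm3 turned to 0.05 each with median-ratio scaling. Cnn2 is listed at 0 in all 6 samples of week 4 and was not tested there. Of the 4871 genes with that listing, 824 reached a mean of 10 FPKM or more at week 5, and Cnn2 is one of them.

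Some counts at week 4 turned on single samples. Without normal replicate 1, limma had 4 members higher and 2 lower at unadjusted p under 0.05. Tagln then had an unadjusted p of 0.0629 in limma and Cnn3 one of 0.0417. Without PBOO replicate 3 there were again 4 higher and 2 lower. Tagln then had an unadjusted p of 0.0526 in limma and Tpm3 one of 0.0124. Without PBOO replicate 1, the lowest of the PBOO samples for all muscle members, all 5 muscle members were past adjusted p under 0.05, with adjusted p-values from 0.0100 to 0.0266. In that limma fit 2126 of 11316 genes were past adjusted p under 0.05, against 58 of 11320 with all samples of week 4.

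**Figure D2:**
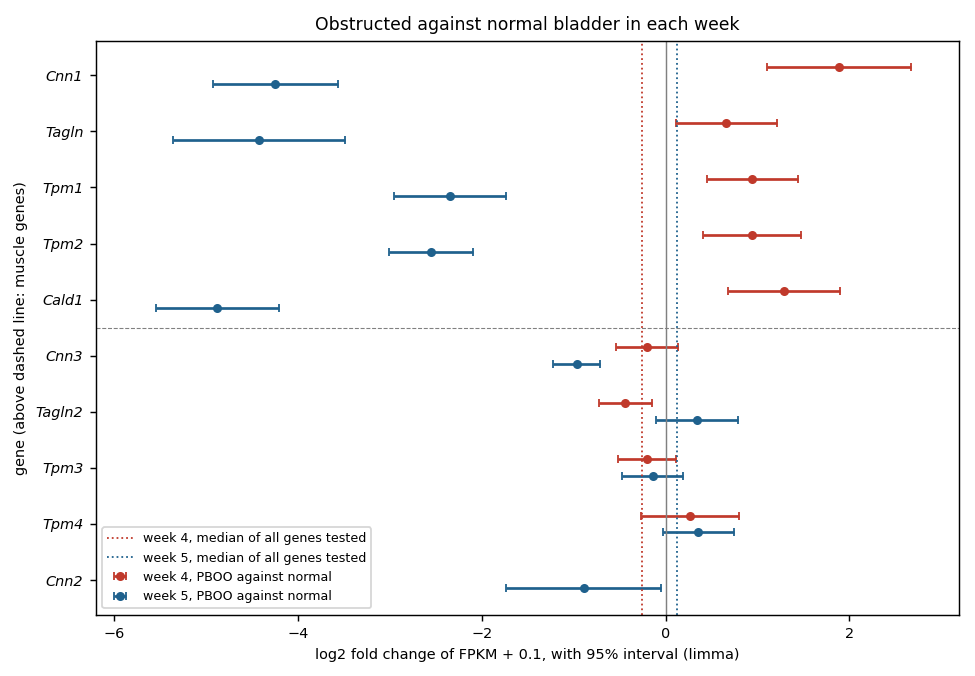
Log2 fold change of FPKM + 0.1 (PBOO against normal) with the 95% interval from limma, at week 4 (red) and week 5 (blue), and the median of all genes tested as dotted lines. The 5 muscle genes lie to the right of 0 at week 4 and between -4.88 and -2.35 at week 5, and Cnn2 has a value at week 5 alone.

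At week 5 the muscle members were far lower after PBOO. All 5 fell at adjusted p under 0.05, by 5.09-fold for Tpm1 to 29.5-fold for Cald1, and the calponin Cnn3 fell as well. Of the 10 members, 7 were lower and 0 higher at unadjusted p under 0.05, where 18.8% of the 13685 genes tested were lower and 24.6% higher. At adjusted p under 0.05, limma called 6 lower and 0 higher, against 14.5% and 15.5% of all genes. Groups did not overlap for 7 lower and 2 higher members, against 25.0% and 35.3% of all genes. The median of all genes was 0.12. The 10 genes took 0.346% and 0.488% of all FPKM in the PBOO samples.

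Cald1 fell the most. It was at 139, 173 and 171 FPKM in normal and 7.21 and 3.95 FPKM in PBOO bladders. Both PBOO samples lay more than an order of magnitude below the lowest normal sample, and Cald1 went from the seventh of the 10 members by mean level to the last. The log2 fold change was -4.88 ± 0.27 (SE), with an adjusted p of 0.000327 in limma.

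Tagln was at 9124, 7632 and 10278 FPKM in normal and 616 and 282 FPKM in PBOO bladders at week 5. Its rank by mean among all genes went from 1 to 131, although it stayed the highest of the 10 members, with a range that overlapped that of Tpm2. The log2 fold change was -4.42 ± 0.38 (SE; limma, adjusted p = 0.00117).

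Cnn1 was at 2229, 2091 and 2316 FPKM in normal and 157 and 85.9 FPKM in PBOO bladders at week 5. Its rank among all genes went from 10 to 546, and its mean in the PBOO samples was below those of Tagln2 and Tpm4. The log2 fold change was -4.25 ± 0.28 (SE; limma, adjusted p = 0.000514).

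The muscle tropomyosins fell less than the other muscle members. Tpm2 was at 2183, 1738 and 2005 FPKM in normal and 306 and 367 FPKM in PBOO bladders, a log2 fold change of -2.55 with a 95% interval of -3.01 to -2.09 (limma, adjusted p = 0.000689). Tpm1 was at 1493, 1514 and 1653 FPKM in normal and 391 and 238 FPKM in PBOO bladders, a log2 fold change of -2.35 with a 95% interval of -2.95 to -1.74 (limma, adjusted p = 0.00217). These intervals did not overlap those of Cald1 (-5.55 to -4.21), Tagln (-5.36 to -3.49) and Cnn1 (-4.93 to -3.56), and the difference itself was not tested.

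Among the non-muscle members, the calponins were lower and the others were not. Cnn3 was at 77.0, 75.7 and 74.4 FPKM in normal and 38.2 and 39.1 FPKM in PBOO bladders, with little spread in either group, and fell by 0.97 on the log2 scale (SE 0.10; limma, adjusted p = 0.00221). Cnn2 was at 53.4, 53.5 and 50.5 FPKM in normal and 18.7 and 42.6 FPKM in PBOO bladders, and the 2 PBOO samples differed more from each other than the second did from the normal samples. Its log2 fold change was -0.89 ± 0.34 (SE; limma, unadjusted p = 0.0409, adjusted p = 0.10), and it was -0.30 without PBOO replicate 1 and -1.49 without PBOO replicate 2. Without any 1 of the 3 normal samples, Cnn2 had unadjusted p-values of 0.0799 to 0.0960.

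Tagln2 was at 241, 198 and 278 FPKM in normal and 315 and 286 FPKM in PBOO bladders at week 5. The groups were just apart, with the PBOO samples higher, and the log2 fold change was 0.34 with a 95% interval of -0.10 to 0.79 (limma, unadjusted p = 0.107). Tpm4 was at 164, 213 and 175 FPKM in normal and 225 and 243 FPKM in PBOO bladders, also just apart, with a log2 fold change of 0.36 and a 95% interval of -0.03 to 0.74 (limma, unadjusted p = 0.0651). Tpm3 was at 46.8, 43.8 and 51.5 FPKM in normal and 46.2 and 39.7 FPKM in PBOO bladders, with overlapping groups and a log2 fold change of -0.14 (95% interval -0.47 to 0.19; limma, unadjusted p = 0.331). For Tpm4 the unadjusted p was 0.0285 without normal replicate 2.

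The obstruction effect differed between the weeks for most of the members. The difference (the log2 fold change at week 5 minus that at week 4) was fitted for the 9 members other than Cnn2. At adjusted p under 0.05, 6 members had a lower effect at week 5 and 1 a higher one, against 13.5% and 26.5% of 11296 genes. At unadjusted p under 0.05 the same counts of 6 and 1 stood against 15.7% and 34.6%. The differences were -6.17 for Cald1, -6.14 for Cnn1, -5.09 for Tagln, -3.49 for Tpm2 and -3.29 for Tpm1, with adjusted p-values in limma from 4.81e-06 to 6.81e-05. Cnn3 followed with -0.76 (limma, adjusted p = 0.00956). Tagln2 had a difference of 0.78 (limma, adjusted p = 0.0160), where the median of all genes was 0.35, and with median-ratio scaling it was 0.50 with an unadjusted p of 0.0899. Tpm4 (0.09, 95% interval -0.59 to 0.77) and Tpm3 (0.06, 95% interval -0.37 to 0.49) did not pass the test, and both turned negative under median-ratio scaling and quantile normalization. Whatever else differed between the sets of week 4 and week 5 samples cannot be told apart from the week.

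The ratio of a muscle to a non-muscle gene within a sample is the same whatever factor a sample is scaled by. At week 4 all 6 ratios that could be formed were higher after PBOO, with groups apart. The log2 ratio of Cnn1 to Cnn3 was 4.23, 4.10 and 3.90 in normal and 5.41, 6.22 and 6.89 in PBOO bladders, a difference of 2.09. The log2 ratio of Tagln to Tagln2 was 4.57, 4.57 and 4.48 in normal and 5.57, 5.70 and 5.64 in PBOO bladders, so that the transgelin pair had a difference of 1.10 with a pooled SD of 0.06. The tropomyosin ratios were higher by 1.14 for Tpm1 to Tpm3, 1.14 for Tpm2 to Tpm3, 0.67 for Tpm1 to Tpm4 and 0.67 for Tpm2 to Tpm4. The exact permutation test (two-sided) gave p = 0.1 for each, which is the smallest value that 3 against 3 samples allow.

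At week 5 all 7 ratios were lower after PBOO, again with groups apart. The log2 ratio of Tagln to Tagln2 was 5.24, 5.27 and 5.21 in normal and 0.97 and -0.02 in PBOO bladders, a difference of -4.77. In the second PBOO sample the transgelins were thus at almost the same level. The log2 ratio of Cnn1 to Cnn3 was 4.85, 4.79 and 4.96 in normal and 2.04 and 1.13 in PBOO bladders, a difference of -3.28. The other differences were -3.35 for Cnn1 to Cnn2, -2.91 for Tpm2 to Tpm4, -2.70 for Tpm1 to Tpm4, -2.41 for Tpm2 to Tpm3 and -2.21 for Tpm1 to Tpm3. The exact permutation p was 0.1 for each, the smallest value possible with 2 against 3 samples. Over the 6 ratios formed in both weeks, the effect at week 5 minus that at week 4 lay between -5.87 and -3.35, and each had an exact permutation p of 0.005 (two-sided, over 200 arrangements within the weeks; adjusted p = 0.005). This is the smallest p the arrangements can give, and it tests the absence of any obstruction effect on the ratio in either week, so that the difference between the weeks was not itself tested.

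**Figure D3:**
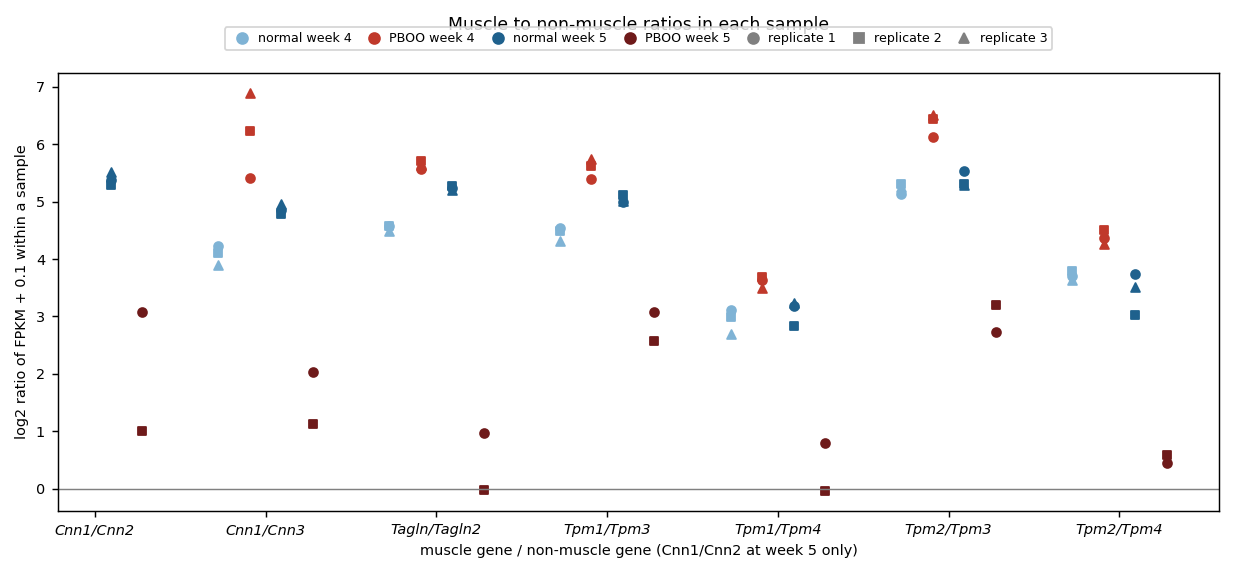
Log2 ratio of FPKM + 0.1 of a muscle to a non-muscle gene in each sample, by group (colour) and replicate (symbol). For every pair the PBOO samples of week 4 lie above, and those of week 5 below, the normal samples of their week.

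The make-up of the families followed from these ratios. Tagln2 made up 4.13% ± 0.14 (SD, n = 3) of transgelin FPKM in normal and 1.97% ± 0.09 (SD, n = 3) in PBOO bladders at week 4. At week 5 its share was 2.58% ± 0.05 (SD, n = 3) in normal bladders and 33.9% and 50.4% in the PBOO samples. Tpm4 made up 4.93% ± 1.0 (SD, n = 3) of tropomyosin FPKM in normal bladders of week 5 and 23.3% and 27.4% in the PBOO samples. Cnn1 made up 94.5% ± 0.35 (SD, n = 3) of calponin FPKM in normal bladders of week 5 and 73.4% and 51.3% in the PBOO samples. The larger non-muscle shares at week 5 came with a lower total of each family: summed tropomyosin FPKM was 3509 to 3886 in normal and 887 to 969 in PBOO bladders, and summed transgelin FPKM was 7830 to 10555 in normal and 568 to 931 in PBOO bladders. Within the tropomyosins, the share of Tpm2 was 49.5% to 56.2% in normal and 31.6% and 41.4% in PBOO bladders, while the ranges of the share of Tpm1 (38.4% to 43.2% and 26.8% to 40.4%) overlapped.

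**Figure D4:**
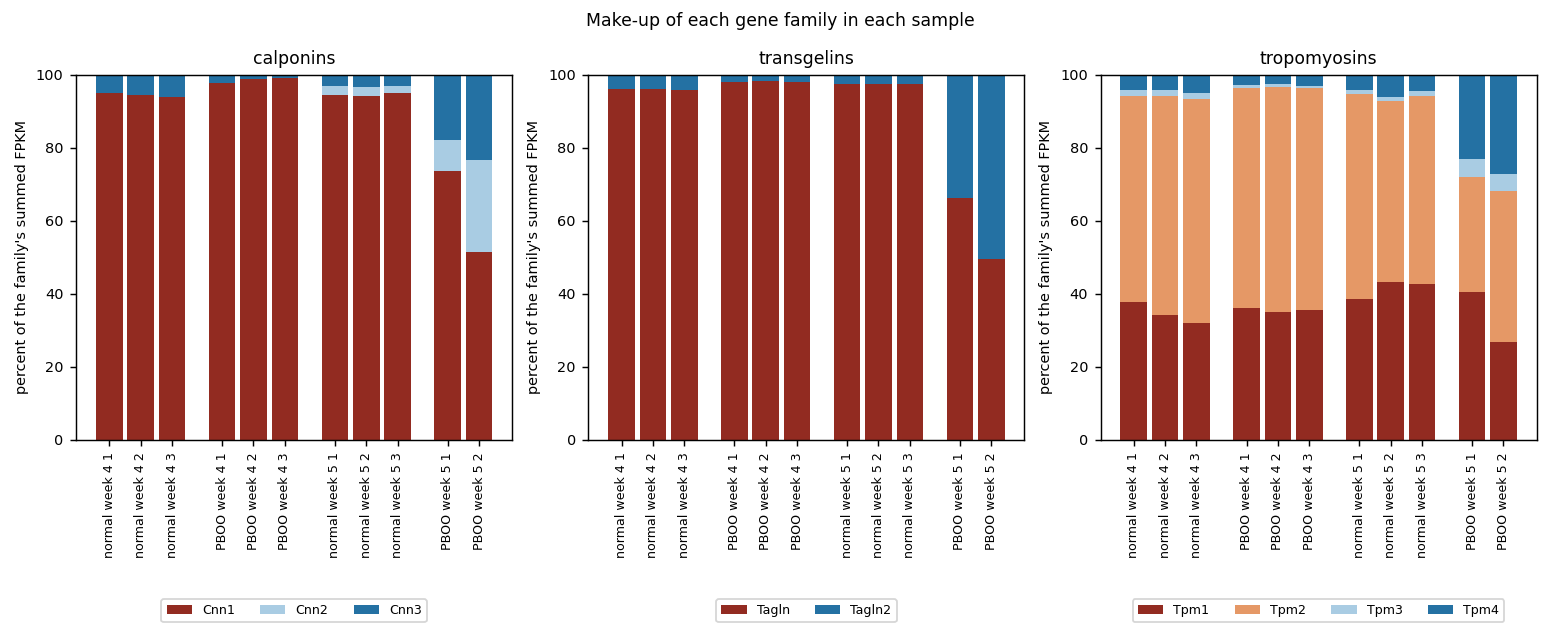
Share of each gene in the summed FPKM of its family (percent) in each sample, for calponins, transgelins and tropomyosins. The non-muscle genes (blue) are a thin band in all samples but the 2 PBOO samples of week 5, where Tagln2 reaches 33.9% and 50.4% of the transgelins.

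The genes that work beside the members on the actin filament were taken from a list of 66 partners, of which 60 were tested in each week. The list shares all smooth muscle markers above but Des, and Acta1, Tnnt3 and Tnni2 of the striated muscle markers. The partner counts and the sums of those markers are therefore not separate observations. At week 4, 20 partners were higher and 8 lower at unadjusted p under 0.05 (4 higher and 0 lower at adjusted p under 0.05 in limma), with a median log2 fold change of 0.17, where 5.76% of all genes were higher and 26.2% lower and their median was -0.25. At week 5, 11 were higher and 36 lower (10 and 36 after adjustment), with a median of -1.52, where 24.6% of all genes were higher and 18.8% lower and their median was 0.12.

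Of the actins, 4 of 6 were higher at week 4, led by Actc1 (log2 fold change 4.12) and Acta1 (2.88), the actins of heart and skeletal muscle, and 5 of 6 were lower at week 5, led by the smooth muscle actins Acta2 (-4.72) and Actg2 (-3.90). The actins of most cells went different ways at week 5, as Actg1 was higher (0.72; limma, adjusted p = 0.0140) and Actb lower (-0.84; limma, adjusted p = 0.0315); both were named after their values were seen. Of the myosins and their regulators, 2 of 8 were higher and 1 was lower at week 4. Myl9, a regulatory light chain of smooth muscle (0.83), was higher, and Myl12b, a light chain of other cells (-0.63), was lower. The other higher one was Myh11 (0.45; limma, unadjusted p = 0.0260, adjusted p = 0.117), named after its values were seen. At week 5, 5 of 8 were lower, led by the light chain kinase Mylk (-5.21) and the smooth muscle heavy chain Myh11 (-4.69), and 2 were higher. The higher ones were Myl12b (0.84; limma, adjusted p = 0.00556) and Myl12a (0.65; limma, adjusted p = 0.0437), named after their values were seen.

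The actin-binding proteins of smooth muscle moved most evenly with the muscle members. At week 4, 9 of the 12 tested were higher and 1 was lower. Fhl1 (1.51) and Synm, an intermediate filament protein (1.07), were in front of the higher ones. At week 5, 12 of 13 were lower, with Synm (-5.90) and Synpo2 (-5.70) in front. The group listed as actin-binding proteins of most cells, which also holds Coro1a, a coronin of leukocytes, was divided. Of its 16 genes, 3 were higher and 3 lower at week 4, among them Msn (1.38) and Actn1 (1.23), and 6 were higher and 3 lower at week 5. At week 5 Coro1a was higher (2.62) beside the higher leukocyte markers, and Actn1 was lower (-2.34).

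Of the 5 proteins tested that bind tropomyosin or cap the filament at its pointed end, 0 were higher and 2 lower at unadjusted p under 0.05 at week 4, and 1 was higher and 3 were lower at week 5. Lmod1, the leiomodin of smooth muscle, was 0.21 at week 4 (limma, unadjusted p = 0.279) and fell by 5.02 on the log2 scale at week 5. Tmod3, the tropomodulin of most cells, was -0.49 at week 4 and rose by 0.61 at week 5 (limma, adjusted p = 0.0202), and Tmod1 was -0.77 at week 4. The tropomodulins Tmod1 (-3.45; limma, adjusted p = 0.00455) and Tmod2 (-2.44; limma, adjusted p = 0.0172) fell at week 5 from low levels, with means over the week 5 samples of 4.07 and 0.53 FPKM, and were named after their values were seen. Of the troponins, the calcium switch of striated muscle, 2 of 7 were higher and 1 lower at unadjusted p under 0.05 at week 4. Tnnt3 (1.81) and Tnnc2 (1.45) were higher and Tnnt2 (-0.55) lower, and the median was -0.55. At week 5, 1 of 5 was higher and 4 were lower, with Tnnt2 (-3.92) and Tnnc1 (-3.00) the most changed. The higher one was Tnni2 (2.36; limma, adjusted p = 0.000932). It and the week 4 value of Tnnt2 were named after their values were seen. Tnnt2 was abundant in normal bladders, at 1152 FPKM at week 4 and 1164 FPKM at week 5 on average. Of the regulators of transcription, 0 of 6 passed unadjusted p under 0.05 at week 4 in limma, and 4 of 7 were lower at week 5, with Srf at -1.52 and Foxo4 at -1.07. Myocd, the coactivator of Srf in smooth muscle, was at -3.86 (limma, adjusted p = 0.00170), with a mean of 1.95 FPKM at week 5; it was named after its values were seen, since it lies below the 5 FPKM set for naming.

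**Figure D5:**
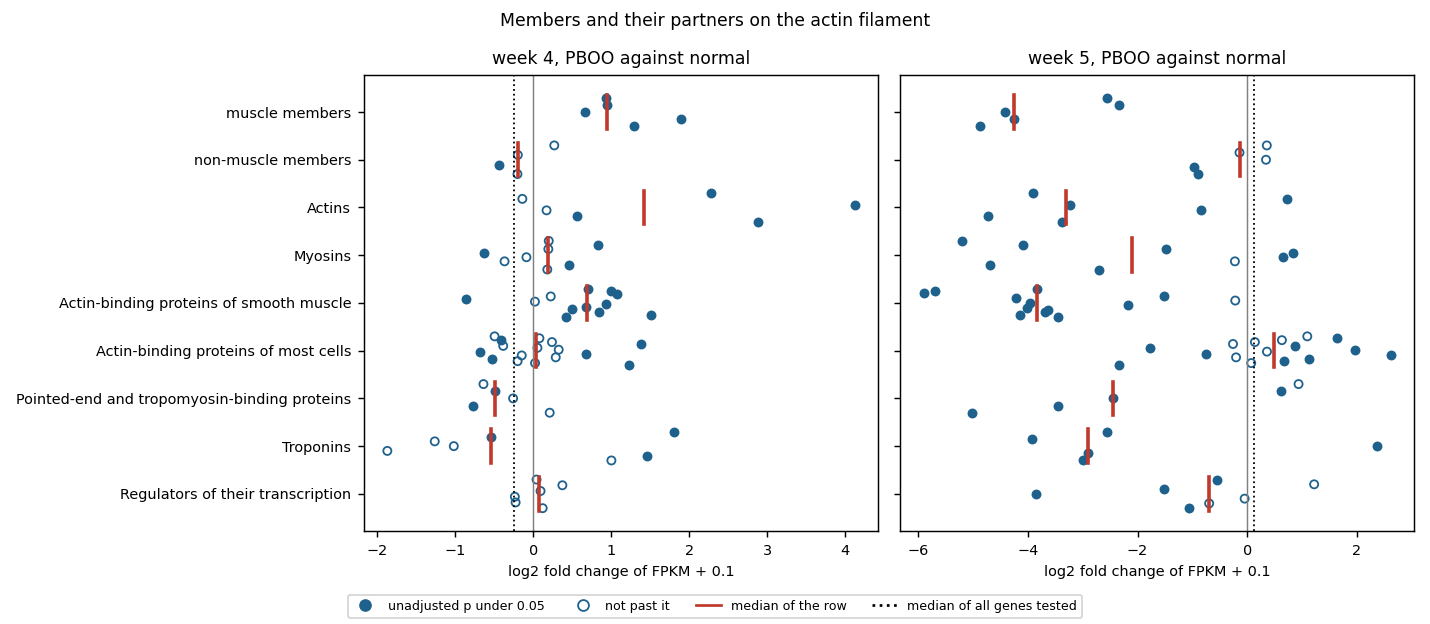
Log2 fold change of FPKM + 0.1 for the muscle and non-muscle members and the 7 groups of partner genes at week 4 (left) and week 5 (right), filled where the unadjusted p was under 0.05, with the median of each row in red and that of all genes dotted. The smooth muscle actin-binding proteins lie mostly to the right of 0 at week 4 and to the left of -1 at week 5, as the muscle members do.

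The genes whose pattern was most like that of a member were sought among 5150 genes over the 11 samples, as a description of samples that fall into 4 groups. For Cnn1 they were Des (Pearson's r = 0.996), Tpm1 (0.996) and Casq2 (0.994), and for Tagln they were Csrp1 (0.996), Synpo2 (0.994) and Pdlim3 (0.994). For Tpm2 they were Fstl1 (0.994), Cfl2 (0.991) and Nnt (0.990). Tagln2 had Tsg101 (0.959), Mycbp (0.954) and Ccm2 (0.947) nearest to it, and Tpm3 had Dda1 (0.938), Eif1 (0.929) and Emc6 (0.926). Between members, r was 0.962 to 0.996 for the 10 pairs of muscle genes. Cnn3, for which no nearest genes were sought, had r = 0.910 with Cald1, 0.909 with Tagln, 0.882 with Tpm2, 0.821 with Tpm1 and 0.816 with Cnn1. Cnn2 was not eligible because of its listing at 0 at week 4.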

How the data were processed

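Bladder RNA of 11 rats was analysed from 1 table in which the authors deposited FPKM per gene; all 11 columns were matched to samples by their labels. Per the methods, 150 bp paired reads from TruSeq libraries (HiSeq4000) were trimmed with SeqPrep and Sickle, mapped with HISAT2 2.0.4, assembled with StringTie 1.3.1 and summarised with featureCounts. The submitters' processing notes name mm10, a mouse build, although the gene symbols are in rat style; annotation and strand are not given in the sources used here. FPKM sums ranged from 424961 to 564343. Read depth is unknown, so no counting interval is given and the count test of the study was not run.

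Values were compared as log2(FPKM + 0.1), so folds of low genes are understated, where the mean reached 0.5 FPKM, with limma 3.58.1 (trended eBayes) in R 4.3.3, by week, and over all samples for the difference between weeks. Calls used unadjusted p under 0.05, with Benjamini-Hochberg values over all genes beside them. Ratios were tested with exact permutation (Python 3.11.15, numpy 2.4.6). Alternatives were a pseudocount of 1, no filter, median-ratio scaling, quantile normalization, eBayes without a trend, a replicate block, 1 fit over all samples and leaving out each sample. For ratios, the median replaced the mean as an alternative.

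Named partner genes are the 2 of each group and week with the largest change among those with unadjusted p under 0.05 and a mean of 5 FPKM or more. The members and lists were chosen with earlier results of these data known. Same-numbered samples correlated in their deviations by 0.15, -0.02 and 0.23 at week 4 and by 0.00 and 0.12 at week 5, so the numbers were not taken to pair animals. Promoter windows are from RefSeq (GRCr8).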

Additional observations from a re-analysis of the deposited data

Results flagged for a closer look

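The effect of obstruction at week 5 differed from that at week 4 for 7 members, by a test of the difference itself. In limma over all 11 samples, the log2 fold change at week 5 minus that at week 4 was -6.17 for Cald1, -6.14 for Cnn1, -5.09 for Tagln, -3.49 for Tpm2, -3.29 for Tpm1 and -0.76 for Cnn3, and 0.78 for Tagln2. In each of the 5 muscle genes, all PBOO samples lay above the normal samples at week 4 and below them at week 5. In Tagln2 the order was the opposite, and its difference did not pass unadjusted p under 0.05 with median-ratio scaling.

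For 6 log2 ratios, every PBOO sample lay above the normal samples at week 4 and below them at week 5. The effect at week 5 minus that at week 4 was -5.87 for Tagln/Tagln2, -5.37 for Cnn1/Cnn3, -3.58 for Tpm2/Tpm4, -3.55 for Tpm2/Tpm3, -3.38 for Tpm1/Tpm4 and -3.35 for Tpm1/Tpm3. The exact permutation p of 0.005 for each is for the absence of any effect in either week, so for the ratios the difference between the weeks was not tested. Groups of 2 or 3 samples were not tested for single samples that stand apart.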

How the results depend on the processing

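At week 5 the 6 members called lower at adjusted p under 0.05 stayed lower and past it under every alternative run. At week 4 the count of members lower at unadjusted p under 0.05 was 0 with median-ratio scaling and 2 with quantile normalization, and 1 to 2 when single samples were left out. The count higher at adjusted p under 0.05 was 2 with quantile normalization, 4 in 1 fit over 11 samples and 0 to 5 when single samples were left out. Among all genes, 58 of 11320 were past adjusted p under 0.05 at week 4 in the main fit, in either direction. That number was 120 with quantile normalization, 946 of 11296 in the 1 fit and 0 to 2126 without single samples. For the difference between weeks, the members higher at unadjusted p under 0.05 numbered 0 with median-ratio scaling, and at adjusted p under 0.05 they numbered 0 with median-ratio scaling and 0 with quantile normalization. The members higher at week 5 numbered 0 to 1 when single samples were left out. The partners lower at week 4 numbered 5 with median-ratio scaling and 5 with quantile normalization, and those higher in the difference numbered 9 with quantile normalization. Values that changed sign were Tagln at week 4 (-0.50, quantile normalization), Cnn3 and Tpm3 at week 4 (0.047 and 0.052, median-ratio scaling), Tpm4 in the difference (-0.20 with median-ratio scaling, -0.11 with quantile normalization, -0.085 to 0.34 without single samples) and Tpm3 in the difference (-0.23, -0.17 and -0.052 to 0.19). For Tagln, quantile normalization uses ranks alone, and its rank by mean was 1 in normal and 2 in PBOO bladders. Why the others changed was not tested.

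With the replicate number as a block, 4 members were higher and 1 lower at week 4, and Tagln lost its call (log2 fold change 0.66, unadjusted p = 0.152). The block changed no other call of a member. Depth, and with it the counting error of Cald1 and Cnn2 in PBOO at week 5, is unknown.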

Other observations

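Set against Myh11, the myosin heavy chain of smooth muscle, in the same sample, the members divided at week 5. This comparison was chosen after the values were seen and is a description without a test. The level of Tpm1 over that of Myh11 was 0.67 to 0.73 in the normal and 3.53 and 3.54 in the PBOO samples, and that of Tpm2 was 0.84 to 0.97 in the normal and 2.77 and 5.44 in the PBOO samples. The level of Cnn1 over that of Myh11 was 0.96 to 1.01 in the normal and 1.27 and 1.42 in the PBOO samples. Tagln (3.67 to 4.28 and 4.18 to 5.57) and Cald1 (0.062 to 0.083 and 0.059 to 0.065) had ranges that overlapped. At week 4, Cnn1 over Myh11 was 0.68 to 0.92 in the normal and 1.31 to 3.88 in the PBOO samples. Tpm1 (0.63 to 0.69 and 0.71 to 1.37) and Cald1 (0.161 to 0.205 and 0.222 to 0.538) were also apart and higher in PBOO. The ranges of Tagln (4.43 to 5.45 and 4.89 to 7.38) and Tpm2 (0.98 to 1.32 and 1.18 to 2.33) overlapped.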
